A study of Mus musculus with 20 samples.

Results

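The metallothioneins Mt1, Mt2 and Mt3, the zinc exporter Slc30a1 and the metal-sensing transcription factor Mtf1 were followed in mouse hypothalamus under the antipsychotic risperidone. The 5 genes were chosen by name and found by Ensembl identifier in the GRCm38 annotation, and they are 5 of the 55471 genes counted. Hypothalamus slices came from wild-type C57BL/6 mice. The groups held 7 libraries from mice on a risperidone diet eaten ad libitum, 6 libraries from mice pair-fed the risperidone diet, and 7 libraries from mice on a control diet eaten ad libitum. The drug diet lasted 4 weeks. Pair-feeding limits an animal's food to the amount eaten by another group. No pair-fed group on the control diet is among the samples, so in the comparison of pair-fed mice with controls the drug and the restricted feeding cannot be told apart. The labels state that body weight did not differ from that of control mice, in a wording that leaves unclear which feeding condition is meant. Whether every library is another mouse is not stated, and p-values here reflect the spread among libraries, part of which may be technical.

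Metallothioneins are small, cysteine-rich proteins that bind zinc and copper. In most tissues Mt1 and Mt2 are induced by zinc, by glucocorticoids and by inflammatory and oxidative stress, and in brain they are made mainly by glia. Mt3 is the brain form and responds little to metals. MTF-1, the product of Mtf1, binds metal response elements when cellular zinc rises and so turns on Mt1, Mt2 and Slc30a1. Slc30a1 (ZnT1) moves zinc out of the cell across the plasma membrane.

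The sequences upstream of the start sites of 4 of the genes are shown because the inducible members are known for elements near the start. They are the 250 bases before the RefSeq start of each gene in GRCm38.p6, all on the + strand, at chr8:94178839-94179088 for Mt1, chr8:94172368-94172617 for Mt2, chr8:94152357-94152606 for Mt3 and chr1:191906531-191906780 for Slc30a1. Capitals mark matches to the core of the metal response element, searched as TGCACNC or TGCGCNC on both strands.
Mt1: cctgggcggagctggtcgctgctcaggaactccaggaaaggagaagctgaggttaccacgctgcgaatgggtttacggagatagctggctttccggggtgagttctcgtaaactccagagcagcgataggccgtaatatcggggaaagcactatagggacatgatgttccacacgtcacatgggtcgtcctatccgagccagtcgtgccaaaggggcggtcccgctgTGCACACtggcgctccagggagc
Mt2: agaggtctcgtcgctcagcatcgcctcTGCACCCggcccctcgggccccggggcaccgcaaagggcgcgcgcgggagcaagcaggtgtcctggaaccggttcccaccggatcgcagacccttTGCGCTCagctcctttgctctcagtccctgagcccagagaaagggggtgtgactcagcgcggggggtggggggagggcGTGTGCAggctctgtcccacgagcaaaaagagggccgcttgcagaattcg
Mt3: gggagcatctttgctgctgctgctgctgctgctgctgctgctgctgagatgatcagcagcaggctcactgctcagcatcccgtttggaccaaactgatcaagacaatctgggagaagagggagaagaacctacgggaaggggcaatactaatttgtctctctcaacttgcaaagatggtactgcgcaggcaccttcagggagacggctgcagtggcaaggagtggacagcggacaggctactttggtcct
Slc30a1: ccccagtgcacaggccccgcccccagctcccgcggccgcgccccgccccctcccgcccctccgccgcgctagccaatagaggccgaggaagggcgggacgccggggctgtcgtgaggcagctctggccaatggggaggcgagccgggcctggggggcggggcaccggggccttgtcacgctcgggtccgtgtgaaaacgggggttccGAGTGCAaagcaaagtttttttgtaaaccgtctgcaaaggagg
Mt2 has 3 such matches in the printed bases, and Mt1 and Slc30a1 have 1 each. The window searched ran 50 bases further, past the start, and held 4 matches at Mt2, 3 at Mt1, 2 at Slc30a1, 1 at Mt3 and 0 at Mtf1. Of 32817 such windows of 300 bases in the RefSeq table, 25.7% held at least 1 match, 7.12% at least 2, 1.97% at least 3 and 0.518% at least 4. A full glucocorticoid response element, searched on both strands as the letters GNACA, NNN and TGTNC in a row, was matched only at Mt1 among the 5 windows, as GGACATGATGTTC from base -94 to base -82 before the start, and 0.475% of all windows held one. The half-site AGAACA, searched on both strands, was matched once, at Mtf1, and 19% of all windows held one. These matches are letters in a window and do not show that a factor binds there. Their number and position before the start also depend on the start that RefSeq gives. At Mt1, matches to the metal response element lay just past that start, at bases 3 to 9 and 21 to 27.

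Depth was 17316043 to 18606543 counts per library, apart from risperidone ad libitum library 3 with 9748005. Levels are given in CPM, read counts scaled to a common library size by TMM, and 17893 genes had enough counts to be tested. Risperidone ad libitum library 1 stood apart in its cell content. Its summed level of 10 markers of cortical and hippocampal neurons was 978 CPM, against 83.5 to 92.6 CPM in pair-fed libraries and 80.9 to 93.4 CPM in control libraries. The median of the ad libitum group was 97.2 CPM. The summed level of 12 hypothalamic markers ran from 535 to 1340 CPM on risperidone ad libitum, from 892 to 1320 CPM in pair-fed libraries and from 1180 to 1550 CPM in controls. On risperidone ad libitum against control 11 of these 12 had negative log2 fold changes (median -0.39, 7 lower and 1 higher at an unadjusted p under 0.05). In risperidone pair-fed against risperidone ad libitum 11 had positive ones (median 0.21), and 0 passed the adjusted threshold in either comparison. The 10 astrocyte markers summed to 3700 to 3960 CPM on risperidone ad libitum, 3490 to 3680 CPM in pair-fed libraries and 3580 to 3840 CPM in controls. In risperidone pair-fed against control 8 were negative and 2 positive on the log2 scale (median -0.07), and 1 passed as lower (0.436% of all genes did). In risperidone pair-fed against risperidone ad libitum 7 were negative and 3 positive (median -0.02). There 4 were lower at an unadjusted p under 0.05 (7.44% of all genes were) and 0 passed. The 8 ependymal markers summed to 41.9 to 62.1 CPM (median 57.5) on risperidone ad libitum, 55.8 to 76.0 CPM (median 66.6) in pair-fed libraries and 59.3 to 73.3 CPM (median 69.0) in controls. On risperidone ad libitum against control all 8 had negative log2 fold changes (median -0.30, 6 at an unadjusted p under 0.05, 0 past the adjusted threshold), and in risperidone pair-fed against risperidone ad libitum all 8 had positive ones (median 0.28). The 10 pericyte and fibroblast markers had medians of -0.37 and 0.39 in these comparisons, with 0 past the threshold, and summed to 184 to 308 CPM, 187 to 334 CPM and 193 to 313 CPM in the 3 groups. The 8 oligodendrocyte markers summed to 3120 to 9520 CPM, 6710 to 9010 CPM and 5820 to 8180 CPM in the same groups. All 8 had positive log2 fold changes in both comparisons with control (medians 0.12 and 0.16), with 0 past the threshold. The 7 tanycyte markers summed to 205 CPM in ad libitum library 1, where the median of its group was 113 CPM and the highest control 141 CPM. The list had no common direction on risperidone ad libitum against control, with 3 log2 fold changes positive and 4 negative (median -0.1, highest 1.27, 0 past the threshold). No marker of these lists was at 0 in any group. The part of these differences in the results was not tested, and in bulk tissue fewer cells of a type and less RNA per cell cannot be told apart.

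Mt1 and Mt3 were among the most abundant messages of the hypothalamus, while the counted levels of Mt2, Slc30a1 and Mtf1 lay near the middle of the tested genes. The place of Mt2 is uncertain, because 73.5% of its exonic bases are shared with a gene on the opposite strand and reads there may be missing. Levels of different genes are compared per kilobase of exonic length, joined over all annotated transcripts of a gene. For Mt1 this length covers the gene from end to end, so values per kb and ranks depend on the annotation. Mt1 (ENSMUSG00000031765, chromosome 8, 94179082 to 94180327) averaged 291 ± 32.6 CPM per kb on risperidone ad libitum, 262 ± 11.1 in pair-fed libraries and 281 ± 28.5 in controls (SD, n = 7, 6 and 7). Mt3 (ENSMUSG00000031760, chromosome 8, 94152607 to 94154146), the form typical of brain, averaged 172 ± 21, 167 ± 13.9 and 168 ± 18.3 CPM per kb in the same 3 groups. In controls Mt1 ranked 68th and Mt3 151st from the top among 17874 tested genes with a known length, above 99.6% and 99.2% of them. The lowest control value of Mt1 was 232 CPM per kb and the highest of Mt3 was 189, so these 2 genes did not overlap on this scale. In CPM, without division by length, the lowest control value of Mt1 was 289 and the highest of Mt3 was 201.

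The 3 remaining members had counted levels close to one another. Slc30a1 (ENSMUSG00000037434, chromosome 1, 191906767 to 191913247) averaged 4.73 ± 0.268 CPM per kb on risperidone ad libitum, 4.57 ± 0.533 in pair-fed libraries and 4.15 ± 0.217 in controls. Mt2 (ENSMUSG00000031762, chromosome 8, 94172664 to 94173568) averaged 3.40 ± 0.758, 3.18 ± 0.451 and 3.99 ± 0.706 CPM per kb in the same 3 groups. Mtf1 (ENSMUSG00000028890, chromosome 4, 124802104 to 124849800) averaged 3.57 ± 0.254, 3.50 ± 0.169 and 3.41 ± 0.229 CPM per kb. In controls the range of Mt2, from 2.86 to 4.95 CPM per kb, covered those of Mtf1 and Slc30a1, so Mt2 as counted did not stand apart from either neighbour. The 3 metallothionein genes lie close together on chromosome 8, all on the + strand. The counted control level of Mt1 per kb was many times that of Mt2, whose counting is uncertain. Mt4, the family member known from stratified epithelium, had no reads in either risperidone group and at most 1 read per library in controls.

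Counting could affect Mt2 more than the other members. Of its 588 exonic bases, 432 (73.5%) are shared with Gm45774, a gene on the opposite strand that held 2 to 16 reads per library, and only 156 bases are its own. The strand setting of the counting is not given in the sources used here, so reads of both genes may be confused or discarded. Slc30a1 shares 8.92% of its exonic bases with the opposite-strand gene 1700034H15Rik and Mtf1 shares 8.09% with 1110065P20Rik. Mt1 and Mt3 share no exonic base with an opposite-strand gene, and the longest identical run between any 2 of the 3 metallothioneins is 27 bases, which is between Mt1 and Mt3.

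No member passed the test in any of the 3 comparisons. Risperidone ad libitum against control called 0 of 5 members, where 0.0615% of all tested genes were called at an adjusted p under 0.05 in edgeR's quasi-likelihood test. Risperidone pair-fed against control called 0 of 5, beside 0.486% of all genes. Risperidone pair-fed against risperidone ad libitum called 0 of 5, beside 0.397%. At an unadjusted p under 0.05, 1 member was higher in each comparison with control, Slc30a1 both times, where 7.14% (ad libitum) and 3.06% (pair-fed) of all genes were higher, and 5.97% and 3.6% were lower. In risperidone pair-fed against risperidone ad libitum 1 member, Mt1, was lower, where 7.44% of all genes were lower and 6.09% higher. DESeq2 and limma-voom also called 0 members in each comparison. The median log2 fold change of the 5 members was 0.05, -0.01 and -0.05, beside 0.01, 0.00 and 0.00 for all tested genes.

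**Figure D1:**
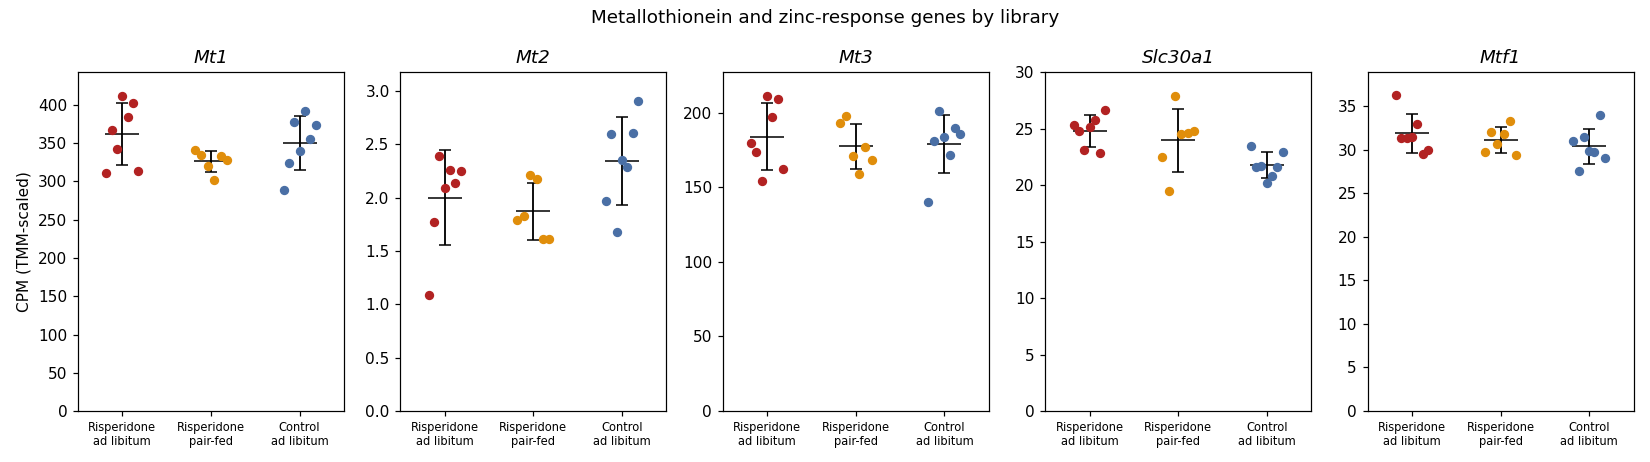
Level of each of the 5 genes in CPM (TMM-scaled, linear axis from 0) in every library, with 1 point per library, the mean as a horizontal bar and the SD as the error bar. All 7 Slc30a1 points of risperidone ad libitum lie above the control mean of 21.8 CPM, and the groups overlap for every gene.

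Mt1, the inducible metallothionein with the most reads counted, had ranges that overlapped in all 3 groups. On risperidone ad libitum its lowest, median and highest values were 311, 367 and 412 CPM, in pair-fed libraries 302, 331 and 341 CPM, and in controls 289, 355 and 392 CPM. The pair-fed values sat within the range of the controls and were less spread. All 6 pair-fed libraries lay below the mean of the ad libitum risperidone group and below the control mean. Risperidone ad libitum against control gave 0.05 on the log2 scale (95% interval from -0.09 to 0.19, with an adjusted p of 0.815 by edgeR). That of risperidone pair-fed against control was -0.10 (-0.25 to 0.05, adjusted p = 0.894), which bounds the fold between 0.84 and 1.03. Risperidone pair-fed against risperidone ad libitum gave a fold of 0.901 (0.813 to 0.999, adjusted p = 0.367 by edgeR).

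Mt2, the second inducible form, was counted at 17 to 40 reads per library on risperidone ad libitum, 29 to 41 in pair-fed libraries and 32 to 52 in controls, so its values are the least precise of the 5. The lowest, median and highest levels were 1.09, 2.14 and 2.39 CPM on risperidone ad libitum, 1.61, 1.81 and 2.21 CPM in pair-fed libraries and 1.68, 2.35 and 2.91 CPM in controls. The lowest of all values, 1.09 CPM, belonged to ad libitum library 1, the library with the high cortical markers. All 6 pair-fed libraries lay below the control mean of 2.34 CPM, with ranges that overlapped. Its log2 fold change was -0.24 on risperidone ad libitum against control (-0.56 to 0.07, adjusted p = 0.507 by edgeR). It was -0.32 in risperidone pair-fed against control (-0.65 to 0.00, adjusted p = 0.754 by edgeR). Between risperidone pair-fed and risperidone ad libitum it was -0.08 (-0.41 to 0.26, adjusted p = 0.864 by edgeR).

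Mt3 had the smallest differences of the metallothioneins against control. Its lowest, median and highest levels were 154, 180 and 211 CPM on risperidone ad libitum, 159, 174 and 198 CPM in pair-fed libraries and 140, 184 and 201 CPM in controls, and the 3 ranges overlapped almost fully. Differences on the log2 scale were 0.04 (-0.12 to 0.20) for risperidone ad libitum against control, -0.01 (-0.18 to 0.16) for risperidone pair-fed against control and -0.05 (-0.22 to 0.12) for risperidone pair-fed against risperidone ad libitum. Of the 3 adjusted p-values the smallest was 0.809 by edgeR. These intervals bound the difference and do not show equal levels.

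Slc30a1, the exporter that MTF-1 induces, had the smallest p of the members against control. Its lowest, median and highest levels were 22.8, 25.1 and 26.6 CPM on risperidone ad libitum, 19.5, 24.5 and 27.9 CPM in pair-fed libraries and 20.2, 21.6 and 23.5 CPM in controls. All 7 ad libitum risperidone libraries were above the control mean and 5 were above the highest control, while the 6 pair-fed libraries spanned the whole control range. The fold was 1.14 on risperidone ad libitum against control (1.05 to 1.25, log2 0.19, adjusted p = 0.212 by edgeR). For risperidone pair-fed against control the log2 fold change was 0.14 (0.01 to 0.27, adjusted p = 0.702 by edgeR), and 5 of 6 libraries lay above the control mean. The feeding conditions on risperidone differed by -0.05 (pair-fed against ad libitum, -0.18 to 0.08, adjusted p = 0.743). The 2 comparisons with control use the same control libraries. Neither difference passed the adjusted threshold.

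Mtf1, which encodes the zinc sensor itself, had no difference past the threshold. Its lowest, median and highest levels were 29.5, 31.4 and 36.3 CPM on risperidone ad libitum, 29.4, 31.2 and 33.3 CPM in pair-fed libraries and 27.6, 29.8 and 34.0 CPM in controls. The highest value was that of ad libitum library 1. The log2 fold change was 0.07 (-0.04 to 0.17) for risperidone ad libitum against control, 0.04 (-0.07 to 0.14) for risperidone pair-fed against control and -0.03 (-0.14 to 0.08) for risperidone pair-fed against risperidone ad libitum, with adjusted p-values of 0.601, 0.993 and 0.825 by edgeR.

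**Figure D2:**
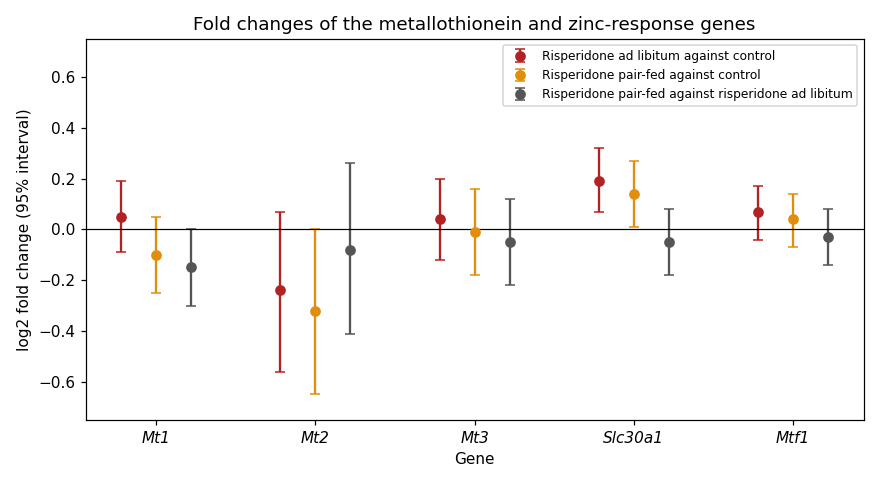
Log2 fold change of each gene in the 3 comparisons, with its 95% interval from the edgeR fit to the 20 libraries. The interval of Slc30a1 on risperidone ad libitum against control runs from 0.07 to 0.32, and the widest intervals are those of Mt2.

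Without ad libitum libraries 1 and 3, the cortex-rich and the shallow one, 0 of 5 members passed as well. Slc30a1 on risperidone ad libitum against control then had a log2 fold change of 0.20 (adjusted p = 0.173 by edgeR), and Mt2 had -0.16 (adjusted p = 0.699). Mt1 in risperidone pair-fed against risperidone ad libitum was then -0.21 (adjusted p = 0.211 by edgeR).

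Zinc transporters as families showed no common direction. The exporters (Slc30a, most of which lower cytosolic zinc) had 9 of 10 genes tested. The importers (Slc39a, most of which raise it) had 14 of 14, and 0 genes of either family passed in any comparison. Slc30a8, the exporter of insulin granules, held at most 3 reads per library and was not tested. At an unadjusted p under 0.05, 3 exporters were higher and 0 lower on risperidone ad libitum against control, with 1 importer higher and 1 lower, where 7.14% of all genes were higher and 5.97% lower. In risperidone pair-fed against control 2 exporters were higher and 0 lower, and 0 importers were higher and 1 lower (3.06% and 3.6% of all genes). Between the feeding conditions (risperidone pair-fed against risperidone ad libitum) 0 exporters were higher and 1 lower, and 1 importer was higher and 2 lower (6.09% and 7.44% of all genes). The exporters' median log2 fold change was 0.01, 0.00 and 0.01 in the 3 comparisons (ad libitum against control, pair-fed against control, pair-fed against ad libitum) and the importers' 0.00, -0.03 and -0.01, close to the 0.01, 0.00 and 0.00 of all tested genes. Within the control hypothalamus Slc39a12, an importer typical of brain, had the highest counted level of the importers at 23.3 CPM per kb, and Slc30a9 had that of the exporters at 12.7 CPM per kb. The level of Slc39a7, at 0.481 CPM per kb, is uncertain, because 2084 of its exonic bases are shared with the same-strand gene Gm20427 and counting may have discarded reads there.

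Slc39a3 (ZIP3), a plasma membrane zinc importer, came nearest to the threshold. It had 58.1, 64.1 and 77.8 CPM as lowest, median and highest value on risperidone ad libitum, 52.5, 57.0 and 60.3 CPM in pair-fed libraries and 49.5, 55.1 and 57.9 CPM in controls. Every library on risperidone ad libitum was above every control library, which held in the higher direction for 0.106% of all tested genes, while the pair-fed range overlapped both. The log2 fold change on risperidone ad libitum against control was 0.25 (0.14 to 0.37, adjusted p = 0.0828 by edgeR). The adjusted p was 0.0105 with DESeq2, and 0.0487 in edgeR without ad libitum library 4, so the call depended on the tool and on 1 library. Without ad libitum libraries 1 and 3 it was 0.19 (adjusted p = 0.0766 by edgeR). In risperidone pair-fed against control Slc39a3 had a log2 fold change of 0.06 (-0.06 to 0.18), and in risperidone pair-fed against risperidone ad libitum -0.19 (-0.31 to -0.07, adjusted p = 0.177 by edgeR).

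Slc30a3 (ZnT3), which loads zinc into synaptic vesicles of cortical and hippocampal neurons, had the largest fold of the transporters, and it came mainly from 1 library. Ad libitum library 1 held 122 CPM of Slc30a3 and the next highest of its group 11.4 CPM, against 3.28 to 8.42 CPM in pair-fed libraries and 3.75 to 6.84 CPM in controls. The log2 fold change of risperidone ad libitum against control was 2.28 (SE 0.628, adjusted p = 0.166 by edgeR), and 0.61 (adjusted p = 0.239) without ad libitum libraries 1 and 3. That of risperidone pair-fed against risperidone ad libitum was -2.09 (adjusted p = 0.191), and -0.42 without those libraries. The library with the high Slc30a3 was the one with 978 CPM of cortical and hippocampal markers.

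The other named transporters had smaller fold changes than Slc30a3. Slc30a4 (ZnT4) had a log2 fold change of 0.14 in risperidone pair-fed against control (SE 0.0483, adjusted p = 0.396 by edgeR). On risperidone ad libitum against control Slc30a4 had 0.12 (adjusted p = 0.302 by edgeR). Slc39a8 (ZIP8), an importer of zinc and manganese, averaged 5.56 ± 0.811 CPM on risperidone ad libitum, 6.77 ± 0.517 CPM in pair-fed libraries and 6.74 ± 0.579 CPM in controls. It had -0.27 on risperidone ad libitum against control (adjusted p = 0.214 by edgeR) and 0.28 in risperidone pair-fed against risperidone ad libitum (adjusted p = 0.204). Most ependymal, pericyte and hypothalamic markers went in the same directions, and their part was not tested. Slc39a2 had -0.14 and Slc39a12 -0.09 in risperidone pair-fed against control, with adjusted p-values of 0.74 and 0.923. Slc30a2 had -0.45 in risperidone pair-fed against risperidone ad libitum (adjusted p = 0.394), and -0.15 without ad libitum libraries 1 and 3.

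**Figure D3:**
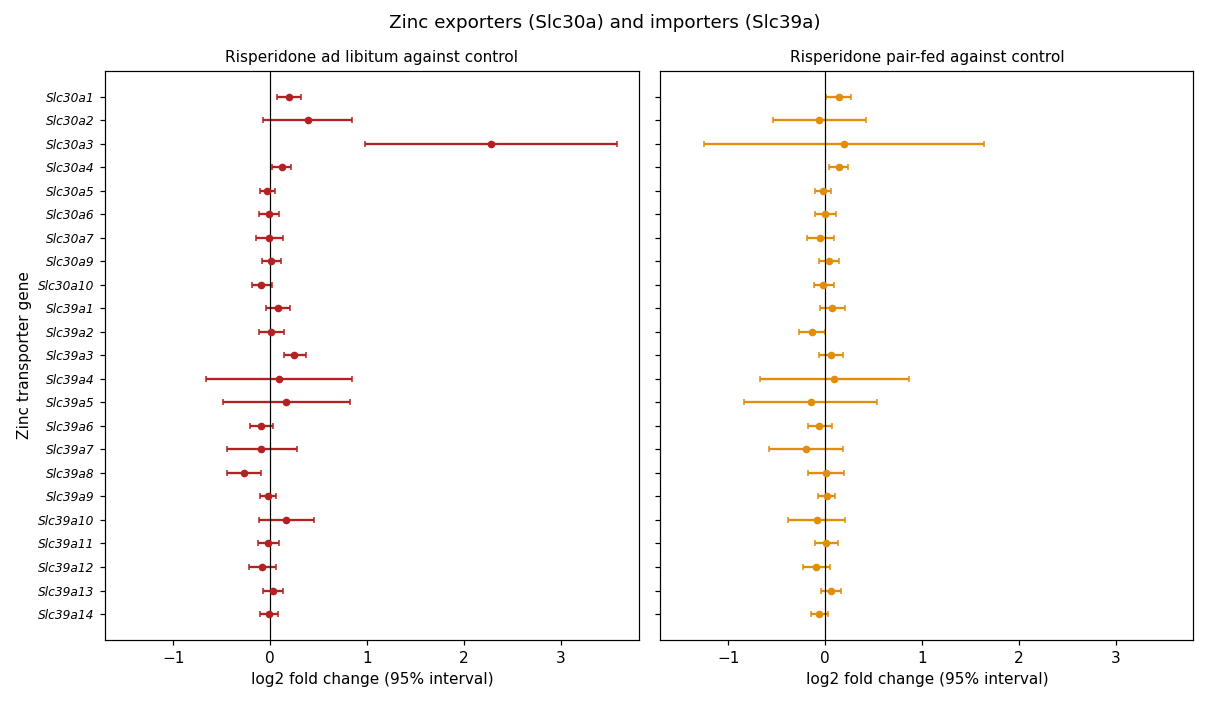
Log2 fold change of the 9 tested zinc exporters and 14 importers on risperidone ad libitum against control (left) and risperidone pair-fed against control (right), with 95% intervals. Most points lie near 0, Slc39a3 is at 0.25 on the left, and Slc30a3 at 2.28 on the left has an interval from 0.98 to 3.58.

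Other genes that MTF-1 or metals are known to regulate were also without a call. All 7 of the other MTF-1 targets were tested, and 0 passed in each comparison by edgeR, DESeq2 and limma-voom. At an unadjusted p under 0.05, 1 was lower on risperidone ad libitum against control (5.97% of all genes were), 1 was higher in risperidone pair-fed against control (3.06%) and 1 was higher in risperidone pair-fed against risperidone ad libitum (6.09%). Gclc, a subunit of the enzyme that limits glutathione synthesis, averaged 68.0 ± 4.26 CPM on risperidone ad libitum, 73.2 ± 3.07 CPM in pair-fed libraries and 74.2 ± 3.56 CPM in controls. Its log2 fold change was -0.12 on risperidone ad libitum against control (adjusted p = 0.251 by edgeR) and 0.11 in risperidone pair-fed against risperidone ad libitum (adjusted p = 0.324). Selenoh, a selenoprotein, had 0.11 on risperidone ad libitum against control (adjusted p = 0.44). Slc40a1 (ferroportin, the iron exporter) had 0.26 and Csrp1 0.14 in risperidone pair-fed against control, with adjusted p-values of 0.734 and 0.87. Slc39a10, an importer, had -0.25 in risperidone pair-fed against risperidone ad libitum, and -0.07 without ad libitum libraries 1 and 3.

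Copper genes were included because metallothioneins also bind copper. Of 12 genes, 11 were tested, and 0 passed in each comparison. At an unadjusted p under 0.05, 0 were higher and 1 lower on risperidone ad libitum against control (5.97% of all genes were lower), 2 higher and 1 lower in risperidone pair-fed against control (3.06% and 3.6%), and 0 higher and 1 lower in risperidone pair-fed against risperidone ad libitum (7.44% lower). Atp7b, a copper-transporting ATPase, had a median of 8.8 CPM on risperidone ad libitum and 8.03 CPM in pair-fed libraries, with a control median of 10.3 CPM. Its 6 pair-fed libraries lay below all controls, a separation that 0.861% of tested genes had in the lower direction. The log2 fold change of risperidone pair-fed against control was -0.34 (SE 0.103, adjusted p = 0.289 by edgeR). It was again -0.34 in the fit without ad libitum library 1, where the adjusted p was 0.0499. On risperidone ad libitum against control Atp7b had -0.23 (adjusted p = 0.326) and Cp, ceruloplasmin, had -0.38 (adjusted p = 0.393). Most ependymal, pericyte and hypothalamic markers went in that direction, and their part was not tested. Sco1, a copper chaperone of cytochrome oxidase, had 0.19 in risperidone pair-fed against control and 0.13 against risperidone ad libitum. Cox17, another such chaperone, had -0.18 in the second of these comparisons, and the smallest adjusted p among these values of Sco1 and Cox17 was 0.332.

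The stress and inflammatory pathways known to induce Mt1 and Mt2 gave no call either. Of 12 NRF2 target and oxidative stress genes, 0 passed in each comparison. At an unadjusted p under 0.05, 0 were higher and 4 lower on risperidone ad libitum against control (5.97% of all genes were lower), 0 higher and 1 lower in risperidone pair-fed against control (3.6%), and 4 higher and 1 lower in risperidone pair-fed against risperidone ad libitum (6.09% higher and 7.44% lower). Their median log2 fold change was -0.08, -0.01 and 0.09 in the 3 comparisons. It was -0.30, -0.02 and 0.28 for the ependymal markers and -0.39, -0.2 and 0.21 for the hypothalamic markers, whose part was not tested. Txnrd1, thioredoxin reductase, had -0.11 on risperidone ad libitum against control (adjusted p = 0.253 by edgeR). Srxn1, sulfiredoxin, had -0.16 in risperidone pair-fed against control and -0.15 in risperidone pair-fed against risperidone ad libitum, with adjusted p-values of 0.329 and 0.231. Txn1, thioredoxin, had 0.21 in risperidone pair-fed against risperidone ad libitum (adjusted p = 0.187), and Slc7a11, the cystine importer, 0.16 in risperidone pair-fed against control (adjusted p = 0.811). 

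Of 12 genes of the IL-6 and STAT3 acute-phase response, 0 passed in each comparison. Lcn2, lipocalin 2, averaged 3.74 ± 4.43 CPM on risperidone ad libitum, 0.44 ± 0.346 CPM in pair-fed libraries and 0.717 ± 1.18 CPM in controls. Single libraries carried these means, since ad libitum libraries 6 and 3 held 11.3 and 8.87 CPM and the other 5 of that group 0.484 to 2.02 CPM, while control library 4 held 3.35 CPM and the next highest control 0.562 CPM. The log2 fold change of Lcn2 was 2.25 on risperidone ad libitum against control and -2.97 in risperidone pair-fed against risperidone ad libitum, with adjusted p-values of 0.235 and 0.157 by edgeR. Osmr, the oncostatin M receptor, had 0.36 and -0.47 in the same comparisons, with adjusted p-values of 0.29 and 0.193. Stat3 had -0.13 and Il6st, the shared receptor subunit gp130, -0.14 in risperidone pair-fed against control, with adjusted p-values of 0.682 and 0.781.

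Listed targets of the glucocorticoid receptor fell in the pair-fed group. Mt1 and Mt2, which glucocorticoids induce in most tissues, passed no test, and whether they differed from the list was not tested. The list of 18 such genes holds no metallothionein. It was chosen with earlier results of these data known, so its counts beside the shares of all genes are a description and no test of the list. In risperidone pair-fed against control 12 of 18 fell and 0 rose, beside 0.436% of all tested genes called lower and 0.0503% higher. In risperidone pair-fed against risperidone ad libitum 8 fell and 0 rose, beside 0.285% lower and 0.112% higher. On risperidone ad libitum against control 2 fell and 0 rose, beside 0.0447% lower and 0.0168% higher. The medians of the list were -0.50, -0.27 and -0.21 on the log2 scale in these 3 comparisons.

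Cdkn1a, which encodes the cell cycle inhibitor p21, averaged 34.2 ± 3.44 CPM on risperidone ad libitum, 19.6 ± 1.69 CPM in pair-fed libraries and 39.5 ± 3.09 CPM in controls. It fell in risperidone pair-fed against control (log2 -1.01, SE 0.0707, adjusted p = 2.22e-08 by edgeR) and against risperidone ad libitum (-0.81, adjusted p = 1.09e-06). Tsc22d3 (GILZ), which mediates anti-inflammatory actions of glucocorticoids, fell by 0.62 on the log2 scale in risperidone pair-fed against control and by 0.41 against risperidone ad libitum. In the same fits Nfkbia, the inhibitor of NF-kappaB, fell by 0.53 and Ddit4, an inhibitor of mTORC1, by 0.47 in risperidone pair-fed against control. Plin4, a lipid droplet protein, fell by 1.67 and Hif3a by 0.84 in risperidone pair-fed against risperidone ad libitum. On risperidone ad libitum against control Ddit4 (-0.30) and the transcription factor Klf15 (-0.31) passed, each with an adjusted p of 0.0343, and both calls were lost without any 1 of control libraries 1 to 6 or of ad libitum libraries 2, 6 and 7, with adjusted p-values up to 0.0943. Over the same contrast of risperidone pair-fed against control, the 95% intervals were -0.25 to 0.05 for Mt1 and -0.65 to 0.00 for Mt2. Across libraries, with group means taken off, the mean level of the list had a correlation of 0.05 with Mt1 (Pearson's r, adjusted permutation p = 0.99) and of 0.38 with Mt2 (adjusted permutation p = 0.458). The Spearman values were 0.04 (adjusted permutation p = 0.927) and 0.31 (adjusted permutation p = 0.638). Without the 2 libraries farthest from the median on the x axis r was -0.05 for Mt1 and 0.30 for Mt2. Within groups the signs for Mt1 differed, with r = 0.45 on risperidone ad libitum, -0.55 in pair-fed libraries and -0.52 in controls, while for Mt2 r was 0.44, 0.65 and 0.03 in the same groups.

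Among the members themselves Mt1 and Mt3 varied together between libraries. Their levels correlated across the 20 libraries with group means taken off (Pearson's r = 0.75, permutation p = 0.00108, adjusted p = 0.0324, and Spearman's rho = 0.73, permutation p = 0.00111, adjusted p = 0.0333). Of 30 relations computed, 10 between members and 20 of members with marker or target lists, this was the only one past the adjusted threshold. It was 0.78 within risperidone ad libitum, 0.82 within pair-fed libraries and 0.72 within controls. It was 0.70 without the 2 libraries farthest from the median of Mt1 and 0.80 without ad libitum libraries 1 and 3. Libraries also differed in the mean level of short transcripts (under 1200 bases) minus that of long ones (over 5000 bases), a measure chosen after the values were seen. That measure had r = 0.56 with Mt1 and 0.42 with Mt3 (adjusted permutation p = 0.0635 and 0.104 over 5 relations). It had r = 0.48 with Mt2, -0.48 with Slc30a1 and -0.51 with Mtf1 (adjusted permutation p = 0.0985, 0.0605 and 0.0635). With it taken off as well, r of Mt1 with Mt3 was 0.68 (adjusted permutation p = 0.0477).

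**Figure D4:**
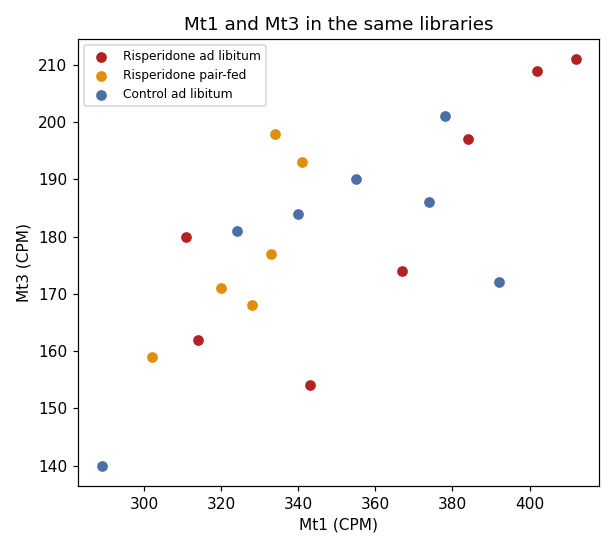
Level of Mt3 (y axis, CPM) against that of Mt1 (x axis, CPM) in each of the 20 libraries, coloured by group, on linear axes that do not start at 0. Libraries with more Mt1 tend to have more Mt3 in each group.

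The relation of Mt1 with Mt2, both inducible, did not pass. Their r was 0.22 (adjusted permutation p = 0.838) and rho was 0.02 (adjusted permutation p = 0.949), and r was -0.30 without the 2 farthest libraries. Within groups it was 0.45 on risperidone ad libitum, -0.71 in pair-fed libraries and 0.11 in controls. Slc30a1 had r = -0.31 with Mt1 and -0.39 with Mt3 (adjusted permutation p = 0.392 and 0.382), with rho of -0.31 and -0.43 (adjusted permutation p = 0.638 for both). The largest relation with a marker list was that of Mt2 with the cortical and hippocampal markers, at r = -0.76 (adjusted permutation p = 0.108) and rho = -0.57 (adjusted permutation p = 0.143). It was -0.49 without ad libitum libraries 1 and 4, and -0.98 within risperidone ad libitum, -0.22 within pair-fed libraries and -0.19 within controls. With the astrocyte markers r was 0.41 for Mt1, 0.12 for Mt2 and 0.27 for Mt3, and the smallest adjusted permutation p of these 3 was 0.458.

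The genes whose levels followed each member most closely across the 20 libraries, with group means taken off and 13763 genes compared, are given by Pearson's r as a description, since the best of so many genes are high in any data. For Mt1 these were Chchd2 (0.85), Tsc22d4 (0.84), Hadh (0.82) and Rpsa (0.80). For Mt3 they were Polr2f (0.89), Elob (0.86), Mrpl40 (0.85) and Mrpl41 (0.83). Polr2f encodes an RNA polymerase subunit, Elob encodes elongin B, and the Mrpl genes encode mitochondrial ribosomal proteins. For Mt2 they were Rbm4b (0.84), Mpp7 (0.83), Slc10a7 (0.83) and Fut4 (0.81), values that were 0.71, 0.64, 0.73 and 0.63 without ad libitum libraries 1 and 3. For Slc30a1 they were Cep135 (0.79), Otud4 (0.75), Orc3 (0.75) and Nol11 (0.74). For Mtf1 they were Srf (0.78), Sostdc1 (0.76), C1qtnf1 (0.76) and Rgs12 (0.75). Srf encodes serum response factor, and no metallothionein or zinc transporter was among these 20 genes. The median exonic length of the 4 genes was 4073 bases for Mt1, 9710 for Mt2, 1579 for Mt3, 6638 for Slc30a1 and 3012 for Mtf1, beside 3939 bases for all tested genes. The members themselves have 1246, 588, 1066, 5244 and 8907 exonic bases in the same order.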

How the data were processed

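Hypothalamus RNA was sequenced in 20 libraries of 3 groups, taken from the labels. The authors deposited raw counts of reads per gene, with no normalization. STAR, featureCounts and DESeq2, with the builds GRCm38 and mm10, are named per the submitters' processing notes, without versions or a strand setting (not given in the sources used here). Of 55471 genes, 55144 were matched to GENCODE M21 by identifier, and the 327 others held 0.0448% of the counts. Within groups, 57 pairs of libraries were compared by chi-square, with a minimum of 2.64 per degree of freedom, above sampling noise, so each library counted once. Total counts set the counting precision, and Mt2 with 17 to 52 reads per library had the least.

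The deposited counts were tested with edgeR 4.0.16 in R 4.3.3 (quasi-likelihood F test, TMM, filterByExpr with a minimum count of 10, 1 coefficient per group, all 20 libraries in 1 fit, two-sided). Genes passed at a Benjamini-Hochberg adjusted p under 0.05 over the 17893 genes tested. The common biological coefficient of variation was 11.26%. Levels are TMM-scaled CPM, and logarithms used a prior count of 2. Correlations used 100000 permutations within groups. The script was tested on simulated data. Alternatives were RLE and upper-quartile scaling, other filters, DESeq2 1.42.0, limma-voom (limma 3.58.1) with quality weights, robust dispersions, the groups compared alone, a replicate block, and leaving out libraries.

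The members and gene lists were chosen with earlier results of these data known. Named were the 5 members, up to 4 genes per list and comparison that passed (otherwise the 2 with the smallest p), the highest transporter of each family and the 4 genes most like each member. Of 19 same-numbered pairs of libraries, 2 had deviations correlated above 0.1, so the numbers were not taken to pair samples. Promoter sequences are from RefSeq (GRCm38.p6).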

Additional observations from a re-analysis of the deposited data

Results flagged for a closer look

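No library of the 5 members stood far from its group. Among 37 genes checked in 3 groups, 111 sets in all, 14 had a library set off from the rest by the size of its gap, and chance flags about 1 set in 20. Ad libitum risperidone library 1, with 978 CPM of cortical and hippocampal markers, held 6 of these. It was highest for Slc30a3 (122 CPM, next 11.4), Slc30a2 (5.38 CPM, next 2.42), Slc39a3 (77.8 CPM, next 65.2) and Slc39a10 (218 CPM, next 116), and lowest for Csrp1 (216 CPM, next 293) and Txnrd1 (56.1 CPM, next 64.1). The shallow ad libitum library 3 was highest for Hif3a (41.3 CPM, next 28.3) and lowest for Slc30a9 (133 CPM, next 154). Ad libitum library 6 was highest for Sco1 (9.5 CPM, next 8.45). Control library 4 was highest for Lcn2 (3.35 CPM, next 0.562) and Osmr (8.89 CPM, next 6.27). Among the other controls, library 3 was highest for Selenoh (11.9 CPM, next 9.78), library 7 for Slc39a10 (117 CPM, next 107) and library 1 for Slc7a11 (54.6 CPM, next 48.3).

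The change against control differed between the feeding conditions on risperidone for 8 of the 18 listed glucocorticoid targets, tested as risperidone pair-fed against risperidone ad libitum in edgeR. The 4 with the smallest p were named because they passed this same comparison, so their values here are a repeat and no further test. The differences of these 4 were -0.81 for Cdkn1a (adjusted p = 1.09e-06), -0.41 for Tsc22d3 (adjusted p = 0.00275), -1.67 for Plin4 (adjusted p = 0.000279) and -0.84 for Hif3a (adjusted p = 0.00157), all on the log2 scale. No member had such a difference past the threshold.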

How the results depend on the processing

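No member passed the threshold under any of the 30 other settings in any comparison. Slc30a1 on risperidone ad libitum against control ran from 0.17 to 0.21 (log2) with adjusted p from 0.119 to 0.369. Signs changed for values near 0. With 1 library left out, Mt3 was -0.01 to 0.07 on risperidone ad libitum against control and -0.06 to 0.02 in risperidone pair-fed against control. In risperidone pair-fed against risperidone ad libitum Slc30a1 was then -0.10 to 0.000625, Mtf1 was -0.05 to 0.00335, and Mtf1 was 0.00486 with ad libitum libraries 1 and 3 left out. The correlation of Mt1 with Mt2 was -0.07 without the same 2 libraries and -0.07 with the transcript-length measure taken off, an alternative added after the data were seen. Under the last setting Mt1 with the glucocorticoid targets was -0.16, and 2 relations passed, the added one being Mt2 with cortical markers (-0.67). Before the measure was taken off, Mt2 with cortical markers was -0.98 within risperidone ad libitum, -0.22 within pair-fed libraries and -0.19 within controls. Ad libitum library 1 held both the highest cortical markers (978 CPM) and the lowest Mt2 (1.09 CPM).

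Counts of genes called moved more. Risperidone ad libitum against control had 11, against totals of 110 with DESeq2, 51 with limma-voom, 3 with the groups alone, 48 without ad libitum libraries 1 and 3, and 0 to 35 with 1 library left out. Risperidone pair-fed against control had 87, and totals of 134, 223, 245, 250 and 66 to 166 under the same settings. Risperidone pair-fed against risperidone ad libitum had 71, and totals of 170, 139, 31, 142 and 39 to 130. The cause was not tested. With a replicate block the counts were 1, 65 and 48. The replicate numbers showed no pairing, with correlations from -0.158 to 0.304 and 0 libraries closest to their own number. Low counts limit Mt2 most, and reads in the bases it shares with Gm45774 may be missing from them.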
